A study of Mus musculus with 8 samples.

Results

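The transcripts described here are 10 mouse genes of prostaglandin and leukotriene synthesis and PGE2 sensing, chosen by symbol. They are the cyclooxygenases Ptgs1 and Ptgs2, the PGE2 synthase Ptges, the PGE2 receptors Ptger2, Ptger3 and Ptger4, and the genes of the 5-lipoxygenase branch, Alox5, Alox5ap, Lta4h and Ltc4s. All 10 were found among the 55487 genes of the count table, and all 10 were among the 15411 genes that passed a filter on low counts and were tested. The cells, BMDC, are dendritic cells raised in culture from bone marrow progenitors with GM-CSF, here for 10 days from WT mice labelled C57/bl6 (C57BL/6J in the methods). According to the methods, the marrow came from female mice of 6 to 8 weeks and GM-CSF was given at 20 ng/ml. The control group, BMDC, had 4 libraries with no treatment. The other group, BMDC-fer, had 4 libraries of BMDC that had been co-cultured for 4 h with ferroptotic Jurkat cells and sorted for those carrying ferroptotic cargo. Jurkat, a human T-cell leukemia line, was here killed with 0.5 µM ML162, a ferroptosis inducer, for 14 h. A sorting step is described for BMDC-fer, and none is described for the untreated BMDC. Engulfment, staining, co-culture, sorting and any ML162 or Jurkat RNA carried over with the dead cells therefore cannot be told apart in this comparison. Whether each replicate came from its own mouse or from pooled mice is not given in the sources used here, and p-values measure the spread between the collected samples.

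Arachidonic acid, cut from membrane phospholipids by phospholipase A2, feeds both branches of this pathway. Cyclooxygenases turn it into PGH2, from which PGE2 synthases make PGE2, a mediator that raises cAMP through the EP2 and EP4 receptors (Ptger2, Ptger4) and lowers it mainly through EP3 (Ptger3). In the other branch, 5-lipoxygenase and its partner protein FLAP make leukotriene A4, which Lta4h hydrolyzes to the chemoattractant leukotriene B4 and Ltc4s joins to glutathione to give leukotriene C4, the parent of the cysteinyl leukotrienes. In dendritic cells PGE2 is best known as a component of maturation cocktails and as a regulator of migration. Ptgs2 transcript is also widely measured as a marker of ferroptosis in dying cells.

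Between BMDC-fer and BMDC, 3 of the 10 genes were called. Ptger2 was 1.84-fold higher in BMDC-fer, while Ptger3 was 4.50-fold lower and Alox5 was 1.92-fold lower. To be called, a gene needed a log2 fold change of at least 0.58 in size together with an adjusted p no higher than 0.05 in the quasi-likelihood test of edgeR, adjusted by Benjamini-Hochberg over all tested genes (n = 4 libraries per group). Among all tested genes, 9.38% were called, 3.47% higher and 5.91% lower in BMDC-fer. Of the 1445 calls, 534 were higher and 911 lower, a split that became 300 and 1179 when no normalization factors were used. The median log2 fold change of the 10 genes was -0.28, with 8 below 0, against a median of 0.000687 over all tested genes. In 4 of the 10, Ptger2, Ptger3, Alox5 and Lta4h, the values of the 2 groups did not overlap, which held for 22.9% of all tested genes. DESeq2 called 4 of the 10 and 14.7% of all tested genes. Leaving out each library in turn gave 2 or 3 calls, and Ptger3 and Alox5 were called in all 8 of these fits. In bulk libraries like these, fewer cells of a type and less RNA per cell cannot be told apart.

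The libraries held between 39326672 and 50532209 counts, and 3 counts, taken as the floor, corresponded to 0.0607 to 0.0785 CPM. CPM is the count of a gene relative to the total count of its library (the usual per-million scale) after TMM normalization, and the floor covers counting error only. The smallest count of any of the 10 genes in any library was 34, for Ptger3 in BMDC-fer replicate 4. Libraries 1 and 2 of each group resembled each other more than they resembled libraries 3 and 4. Of the variance in log2 CPM, 39.9% fell on the first principal component and 38.4% on the second, and the chi-square per gene between libraries of one group was 8.97 to 40.3 within these sets and 136 to 341 across them. The labels name no batch for this split, so each effect is also given within replicates 1 and 2 and within replicates 3 and 4. These effects come from a fit with a mean for each group in each set, in which all 8 libraries share the spread. That spread lies between libraries of the same group and set, so p-values of this fit do not measure a spread between sets.

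The promoters of the 3 called genes are printed because these are the genes whose transcripts moved past the threshold, and their start regions differ in base composition. Each window holds the 250 bases before the RefSeq transcription start in GRCm38.p6, read 5′ to 3′ on the strand of the gene, with every match to GGGCGG, the GC box, on either strand in capitals. Ptger2 is at chr14:44987861-44988110 on the plus strand, Ptger3 at chr3:157566626-157566875 on the plus strand and Alox5 at chr6:116461179-116461428 on the minus strand.
Ptger2: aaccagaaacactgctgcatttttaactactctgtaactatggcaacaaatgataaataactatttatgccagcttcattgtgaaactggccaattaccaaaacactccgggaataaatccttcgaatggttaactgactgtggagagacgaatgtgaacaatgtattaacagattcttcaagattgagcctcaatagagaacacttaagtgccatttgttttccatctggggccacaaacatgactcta
Ptger3: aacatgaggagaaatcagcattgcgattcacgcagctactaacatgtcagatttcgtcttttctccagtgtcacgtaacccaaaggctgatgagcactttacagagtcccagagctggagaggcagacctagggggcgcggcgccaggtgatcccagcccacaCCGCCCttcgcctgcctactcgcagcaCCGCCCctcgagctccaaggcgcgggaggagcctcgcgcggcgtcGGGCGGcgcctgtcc
Alox5: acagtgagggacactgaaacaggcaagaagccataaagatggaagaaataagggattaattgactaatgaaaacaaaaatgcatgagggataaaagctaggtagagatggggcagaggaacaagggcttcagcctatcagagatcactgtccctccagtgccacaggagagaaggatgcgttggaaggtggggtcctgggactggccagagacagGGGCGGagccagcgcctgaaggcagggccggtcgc
The Ptger2 window had 38% G or C and no GC box, the Ptger3 window had 62% and 3 GC boxes, and the Alox5 window had 52.8% and 1. Windows were found for 9 of the 10 genes, all but Alox5ap, and 5 of the 9 held a GC box, as did 32.7% of all 32851 windows of this length. CGTCA (a core of the cAMP response element, in 17.8% of all windows), CACGTG (an E-box, in 6.02%, whose letters can overlap CGTCA) and TATAAA (the TATA box, in 12.4%) were searched on both strands and had no match in any of the 9 windows. Bases outside these windows, such as those after the start used or near another start of a gene, were not searched. The absence of a match therefore holds for these 250 bases only. These matches describe letters only, and no binding was measured.

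Levels of different genes were compared as CPM per kb of exon. In BMDC, Alox5ap was highest at 134 ± 10.3 (SD, n = 4), followed by Ptgs1 at 99.9 ± 17.4 CPM per kb. Alox5 and Lta4h followed at 38.5 ± 3.42 and 28.0 ± 10.4 CPM per kb, with overlapping values, then Ltc4s at 9.71 ± 4.30 and Ptger4 at 5.91 ± 1.21, which overlapped as well. Ptger2 stood at 1.63 ± 0.167 CPM per kb, above the means of Ptger3, Ptges and Ptgs2. Those means lay between 1.08 and 1.20, and the values of these genes did not separate from each other. In BMDC replicates 3 and 4, Ptgs2 at 2.05 and 1.72 CPM per kb exceeded Ptger2 at 1.62 and 1.68. In BMDC-fer the same order held from Alox5ap at 114 ± 18.7 CPM per kb down to Ptger2 at 3.00 ± 0.932, and Ptger3 moved to the last place at 0.265 ± 0.114. The other neighbours whose libraries overlapped in BMDC-fer were Alox5ap with Ptgs1, Ltc4s with Ptger4, and Ptger4 with Ptger2. Alox5ap was thus at the 97.2 percentile of all tested genes in BMDC and at the 96.5 percentile in BMDC-fer, while Ptger3 was at the 28.0 percentile and at the 11.6 percentile.

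**Figure D1:**
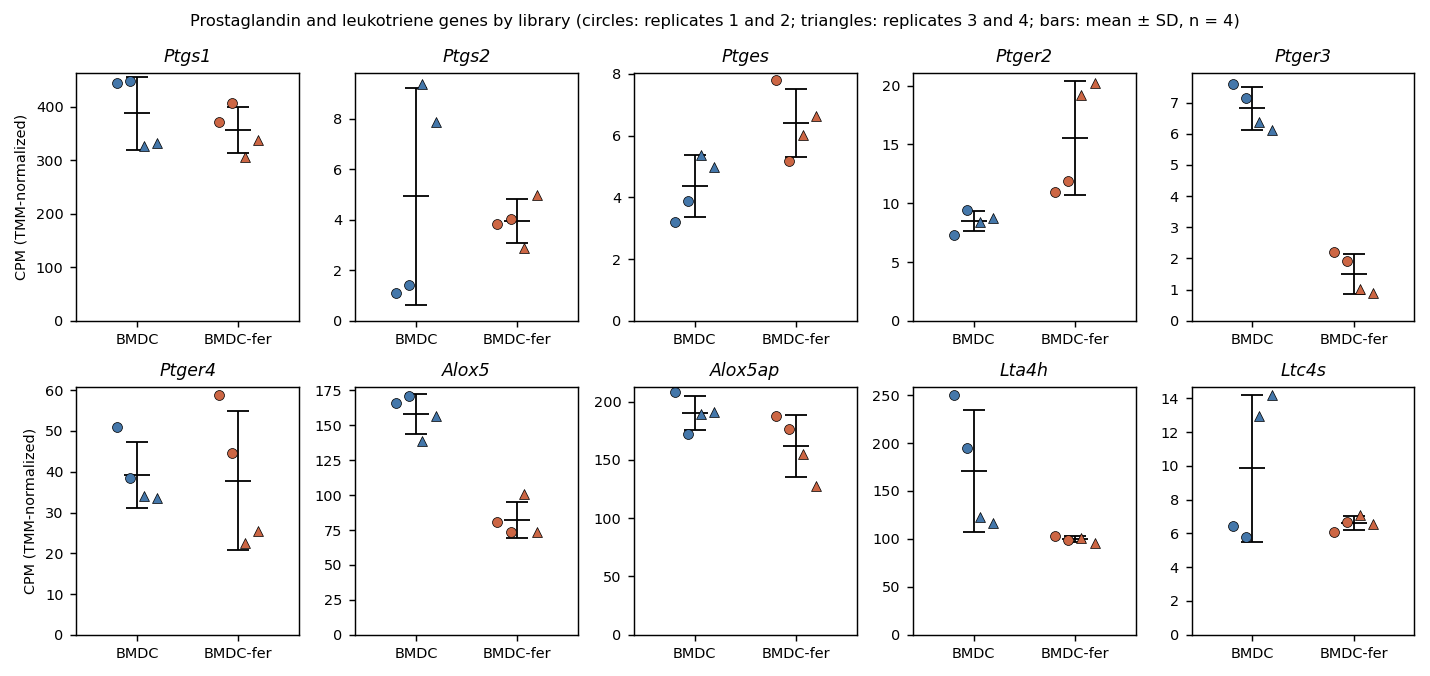
Normalized expression (CPM, TMM-scaled, linear axes from 0) of the 10 genes in each library of BMDC (blue) and BMDC-fer (orange), with circles for replicates 1 and 2, triangles for replicates 3 and 4, and bars for mean ± SD of 4 libraries. All BMDC-fer points lie above BMDC for Ptger2 and below BMDC for Ptger3, Alox5 and Lta4h, and the BMDC points of Ptgs2, Lta4h and Ltc4s split by replicate set.

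Among the cyclooxygenases, neither was called over all 8 libraries. Ptgs1 encodes the constitutive enzyme and lies at chr2:36230426-36252272 on the plus strand (GRCm38, which is mm10, with GENCODE M21 genes, as for all loci given here). Its level was 444, 449, 327 and 332 CPM in BMDC replicates 1 to 4 and 372, 407, 307 and 339 CPM in BMDC-fer replicates 1 to 4. The groups overlapped, with means of 388 ± 67.6 and 356 ± 43.3 CPM and a log2 fold change of -0.12 ± 0.15 (SE, edgeR adjusted p = 0.618). The exons of Ptgs1 share 148 of their 3884 bases with Gm43621 on the opposite strand.

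Ptgs2, the inducible cyclooxygenase, lies at chr1:150100031-150108227 on the plus strand. It stood at 1.08 and 1.43 CPM in BMDC replicates 1 and 2 but at 9.37 and 7.86 CPM in BMDC replicates 3 and 4. BMDC-fer replicates 1 to 4 had 3.84, 4.04, 2.90 and 5.0 CPM, between those 2 sets of controls. The counts behind these values ranged from 47 to 396. Ptgs2 was therefore higher in BMDC-fer within replicates 1 and 2, by 1.64 on the log2 scale (edgeR adjusted p = 0.00202), and lower within replicates 3 and 4, at -1.13 (edgeR adjusted p = 0.00553). The difference between these effects was -2.77 on the log2 scale (edgeR interaction, adjusted p = 0.000843). Over all 8 libraries the log2 fold change was -0.32 ± 0.65 (edgeR adjusted p = 0.769), and its sign turned without BMDC replicate 3, to 0.20, and when the replicate number entered as a block, to 0.21 (edgeR adjusted p = 0.841; 0.452 to 0.999 over 16 alternatives). Per kb of exon, Ptgs1 exceeded Ptgs2 483-fold and 370-fold in BMDC replicates 1 and 2 and 41.1-fold and 49.8-fold in replicates 3 and 4. In BMDC-fer the ratio of these levels was between 79.9 and 125.

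Ptges, the inducible microsomal PGE2 synthase that works downstream of Ptgs2, lies at chr2:30889471-30929863 on the minus strand. It had 3.20, 3.90, 5.37 and 4.99 CPM in BMDC and 7.79, 5.16, 6.01 and 6.65 CPM in BMDC-fer. Of the BMDC-fer libraries, 3 lay above all BMDC libraries, and BMDC-fer replicate 2 lay below BMDC replicate 3. The log2 fold change was 0.55 ± 0.22 and was not called (edgeR adjusted p = 0.132, and p = 0.0571 in the two-sided exact permutation test). Within replicates 1 and 2 it was called, at 0.87 (edgeR adjusted p = 0.0116), and within replicates 3 and 4 it was 0.29. The effects in the 2 sets did not differ past the threshold (-0.58, edgeR interaction, adjusted p = 0.163).

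Of the PGE2 receptors, Ptger2 and Ptger3 were called, in opposite directions. Ptger3, which encodes EP3 and lies at chr3:157566892-157645888 on the plus strand, had 7.60, 7.16, 6.39 and 6.11 CPM in BMDC. In BMDC-fer it had 2.21, 1.91, 1.03 and 0.890 CPM, so that the lowest control was well above the highest BMDC-fer library. These values came from 245 to 340 counts in BMDC and from 34 to 109 counts in BMDC-fer. Its log2 fold change was -2.17 ± 0.31 (edgeR adjusted p = 0.00619), and the exact permutation test gave p = 0.0286, the smallest that 4 against 4 libraries allow. The fall was seen in both sets, at -1.84 within replicates 1 and 2 and -2.70 within replicates 3 and 4, and was larger in the latter (difference -0.86, edgeR interaction, adjusted p = 0.0261).

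Ptger2, the gene of EP2, spans chr14:44988195-45003820 on the plus strand. BMDC had 7.33, 9.41, 8.42 and 8.73 CPM, and BMDC-fer had 10.9, 11.8, 19.2 and 20.2 CPM. All BMDC-fer libraries were above all BMDC libraries, and replicates 3 and 4 stood highest. The log2 fold change was 0.88 ± 0.23 (edgeR adjusted p = 0.0412, exact permutation p = 0.0286). This call sat close to the threshold. It held without BMDC-fer replicate 1 (edgeR adjusted p = 0.0321), and it was lost when any of the other 7 libraries was left out, with adjusted p between 0.0508 (without BMDC-fer replicate 2) and 0.109 (without BMDC-fer replicate 4). It was also lost with no normalization factors (0.78, edgeR adjusted p = 0.0625; 0.00380 to 0.109 over 16 alternatives). Within replicates 1 and 2 the log2 fold change was 0.44, under the fold threshold (edgeR adjusted p = 0.0304), and within replicates 3 and 4 it was 1.20 (edgeR adjusted p = 0.000137). The effect was larger in replicates 3 and 4 by 0.76 (edgeR interaction, adjusted p = 0.0140). The exons of Ptger2 share 390 bases with genes on the opposite strand, Gm49364 and Gm17173, and the use of strand in counting is not given in the sources used here.

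Ptger4, which encodes EP4 and lies at chr15:5206661-5244187 on the minus strand, had the highest level per kb of these 3 receptors in every BMDC library. It had 50.9, 38.5, 34.1 and 33.6 CPM in BMDC and 58.8, 44.5, 22.5 and 25.5 CPM in BMDC-fer. The BMDC-fer libraries lay on both sides of the controls, replicates 3 and 4 below all of them. Over all libraries the log2 fold change was -0.05 ± 0.31 (edgeR adjusted p = 0.922). It was 0.21 within replicates 1 and 2 and -0.50 within replicates 3 and 4, and these differed by -0.71 (edgeR interaction, adjusted p = 0.0361). Its values are uncertain in part, since 25.66% of the 50-base words of its longest transcript also occur in the overlapping genes Ttc33 and Gm15937 on the opposite strand.

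As shares of the summed CPM per kb of these 3 receptors, Ptger3 made up 12.8% to 14.3% in the BMDC libraries and 1.98% to 3.60% in the BMDC-fer libraries. The share of Ptger2 was 13.6%, 20.5%, 20.6% and 21.5% in BMDC and 18.6%, 24.5%, 50.9% and 49.4% in BMDC-fer. Ptger4 held 64.7% to 73.6% in BMDC, 78.0% and 71.9% in BMDC-fer replicates 1 and 2, and 46.6% and 48.6% in BMDC-fer replicates 3 and 4. The ratio of Ptger2 to Ptger3, both per kb, was 1.06 to 1.56 in BMDC and 5.44, 6.80, 20.4 and 24.9 in BMDC-fer. These shares restate the levels above and were not tested separately.

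**Figure D2:**
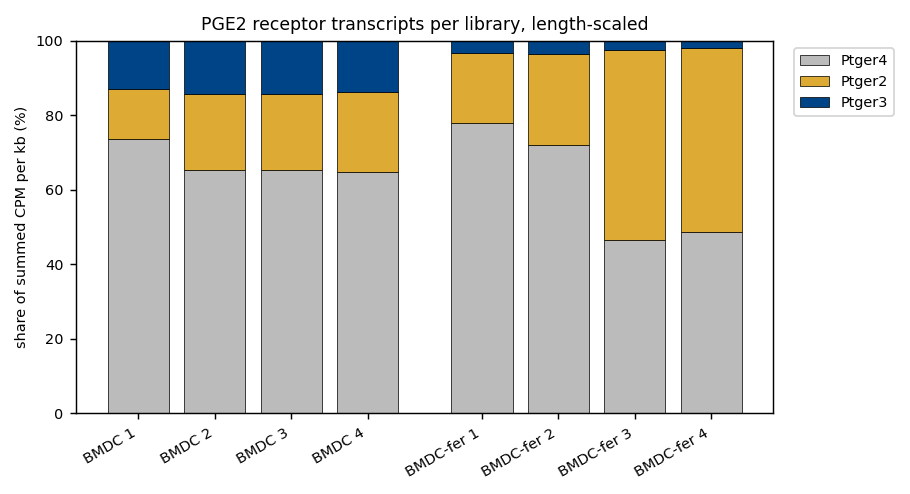
Share (%) of each PGE2 receptor in the summed length-scaled level (CPM per kb) of Ptger2, Ptger3 and Ptger4, with a bar for each library. The Ptger3 share is at least 12.8% in every BMDC library and at most 3.60% in every BMDC-fer library, and the Ptger2 share is near 50.9% and 49.4% in BMDC-fer replicates 3 and 4.

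In the leukotriene branch, Alox5 was the gene that was called. It encodes 5-lipoxygenase, the enzyme that opens the branch, and lies at chr6:116410077-116461178 on the minus strand. Its level was 166, 171, 139 and 156 CPM in BMDC and 80.6, 73.8, 101 and 73.9 CPM in BMDC-fer. Every BMDC-fer library was below every control. The log2 fold change was -0.94 ± 0.13 (edgeR adjusted p = 0.00549, exact permutation p = 0.0286), with -1.13 within replicates 1 and 2 and -0.76 within replicates 3 and 4. These effects did not differ past the threshold (0.37, edgeR interaction, adjusted p = 0.158). The call held in all 8 fits without a library, with edgeR adjusted p between 0.00908 and 0.0273.

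Alox5ap encodes FLAP, the membrane protein that presents arachidonic acid to 5-lipoxygenase, and lies at chr5:149264767-149288153 on the plus strand. It had 208, 173, 190 and 192 CPM in BMDC and 188, 176, 155 and 128 CPM in BMDC-fer. The groups overlapped, and the log2 fold change of -0.24 ± 0.14 was not called (edgeR adjusted p = 0.274). Within replicates 3 and 4 it was -0.43, under the fold threshold (edgeR adjusted p = 0.0127), and within replicates 1 and 2 it was -0.06. The exons of Alox5ap share 189 of their 1420 bases with Gm19719 on the opposite strand.

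Lta4h, the gene of leukotriene A4 hydrolase at chr10:93453411-93484875 on the plus strand, had 251, 195, 123 and 117 CPM in BMDC. The BMDC-fer libraries were close together at 103, 99.3, 101 and 95.6 CPM, below all controls. The log2 fold change was -0.78 ± 0.24 and missed the threshold (edgeR adjusted p = 0.0646, exact permutation p = 0.0286). It was called by DESeq2 (adjusted p = 0.0187), with the replicate set as a covariate (edgeR adjusted p = 0.0180) and without BMDC replicate 4 (edgeR adjusted p = 0.0453), and adjusted p was 0.0180 to 0.156 over 16 alternatives. The effect was -1.14 within replicates 1 and 2 (edgeR adjusted p = 0.000174) and -0.28 within replicates 3 and 4 (edgeR adjusted p = 0.0595). The difference of 0.86 between the sets passed the threshold (edgeR interaction, adjusted p = 0.00325).

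Ltc4s, the gene of leukotriene C4 synthase at chr11:50236461-50238616 on the minus strand, had the reverse split in the controls. BMDC replicates 1 and 2 had 6.43 and 5.77 CPM, and BMDC replicates 3 and 4 had 13.0 and 14.2 CPM. All BMDC-fer libraries lay at 6.11 to 7.09 CPM, near the lower controls. The log2 fold change was -0.57 ± 0.30 over all libraries (edgeR adjusted p = 0.236), 0.07 within replicates 1 and 2, and -0.99 within replicates 3 and 4 (edgeR adjusted p = 0.000327). These differed by -1.06 (edgeR interaction, adjusted p = 0.00284). Per kb, Lta4h exceeded Ltc4s 6.48-fold and 5.61-fold in BMDC replicates 1 and 2, 1.57-fold and 1.36-fold in replicates 3 and 4, and 2.36-fold to 2.80-fold in BMDC-fer. The exons of Ltc4s share 268 of their 1014 bases with Gm26542 on the opposite strand, and 8.85% of the 50-base words of its longest transcript also occur there.

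By the interaction test, the effect thus differed between the replicate sets for 6 of the 10 genes, Ptgs2, Ptger2, Ptger3, Ptger4, Lta4h and Ltc4s, and the same test was passed by 37.8% of all tested genes. This test rests on the spread between libraries of the same group and set, which may not be independent. Leaving out BMDC replicate 3 brought the 6 down to 3, and without the other libraries it was 4 to 7. Within replicates 1 and 2, 5 genes were called, Ptgs2 and Ptges higher and Ptger3, Alox5 and Lta4h lower in BMDC-fer, where 22.3% of all tested genes were called. Within replicates 3 and 4, 5 genes were called, Ptger2 higher and Ptgs2, Ptger3, Alox5 and Ltc4s lower, where 33% of all tested genes were called. Ptger3 and Alox5 were called in the same direction in both sets. For Ptgs2, Lta4h and Ltc4s the SD over the BMDC libraries was 4.29, 63.7 and 4.36 CPM, and over the BMDC-fer libraries it was 0.861, 3.06 and 0.404 CPM.

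**Figure D3:**
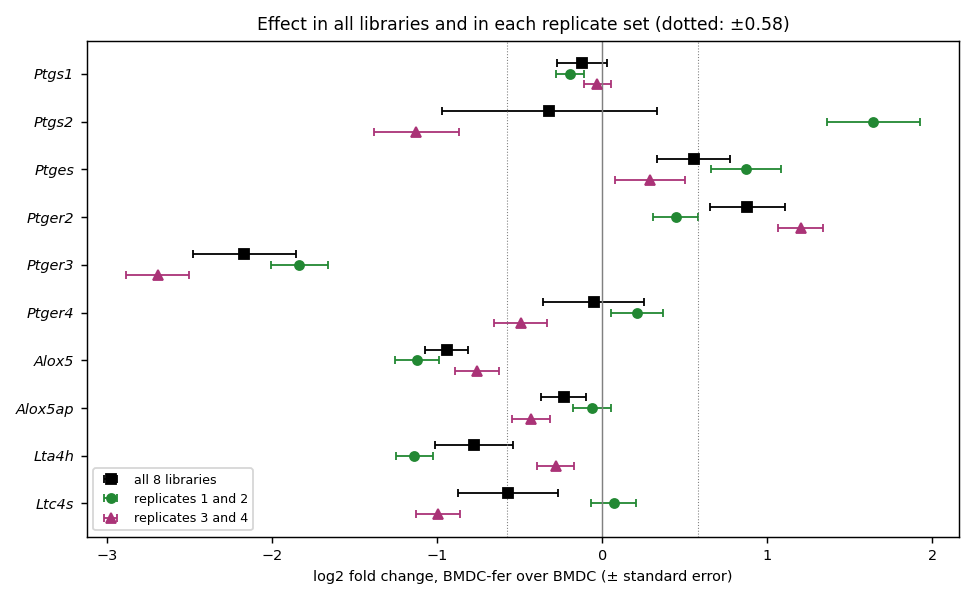
Fitted log2 fold change (BMDC-fer over BMDC, ± SE) of each of the 10 genes over all 8 libraries (black squares), within replicates 1 and 2 (green circles) and within replicates 3 and 4 (purple triangles), with dotted lines at ±0.58. The symbols for Ptgs2 lie on opposite sides of 0 (1.64 and -1.13), while all those of Ptger3 and Alox5 lie below -0.58.

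Other genes of the pathway, and genes induced by cAMP, were taken from lists of 62 genes, of which 60 were used and 41 were tested. Of the 41, 10 were genes induced by cAMP. In these, 5 genes were called, Pla2g6 and Pla2g15 higher and Alox15, Pde4b and Sik1 lower in BMDC-fer, and the median log2 fold change was 0.01. With the replicate number as a block, which called 13% of all tested genes, 10 were called, 6 higher and 4 lower. Leaving out BMDC replicate 4 or any of BMDC-fer replicates 2 to 4 left 1 call, and leaving out BMDC replicate 3 or BMDC-fer replicate 1 left 3.

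Upstream, the phospholipase A2 genes had 8 tested members, of which 2 were called, both higher, with a median of 0.61. Pla2g15, a lysosomal phospholipase, had 70.3, 89.8, 45.1 and 42.5 CPM in BMDC and 120, 143, 105 and 104 CPM in BMDC-fer (log2 fold change 0.93 ± 0.25, edgeR adjusted p = 0.0433). All BMDC-fer libraries lay above all controls, yet the call held without BMDC replicate 2 and was lost without each of the other 7 libraries (adjusted p of 0.0622 to 0.109). Pla2g6, a calcium-independent phospholipase A2, had 6.53 to 8.13 CPM in BMDC and 10.1 to 12.8 CPM in BMDC-fer. Its log2 fold change was 0.61 ± 0.14 (edgeR adjusted p = 0.0314), and this call was lost in all 8 fits without a library (0.0527 to 0.0873). Of this list, the highest fold change was that of Pla2g4b at 0.97, from 0.0748 to 0.431 CPM and not called (edgeR adjusted p = 0.225), and the lowest was that of Pla2g12a at -0.52 (edgeR adjusted p = 0.173).

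The other prostanoid synthases had 7 tested members, all with a fold change above 0 (median 0.33) and 0 called in edgeR (3 at an unadjusted p under 0.05), with 2 called under the replicate block and 2 by DESeq2. They ranged from Ptges2, a further PGE2 synthase, at 0.20 ± 0.12 (edgeR adjusted p = 0.272) to Fam213b, a prostamide and prostaglandin F synthase, at 0.91 ± 0.32 (edgeR adjusted p = 0.0965). Of the other prostanoid receptors 3 were tested and 0 called in edgeR (1 at an unadjusted p under 0.05), with 1, Ptgir, called by DESeq2. Ptgir, the prostacyclin receptor gene, had 53.8, 58.3, 26.7 and 26.8 CPM in BMDC and 68.7, 68.9, 87.3 and 77.9 CPM in BMDC-fer (0.87 ± 0.27, edgeR adjusted p = 0.0716). Its groups did not overlap, and its effect was 0.30 within replicates 1 and 2 and 1.63 within replicates 3 and 4. Ptgdr2, a prostaglandin D2 receptor gene near the floor in several libraries, had the lowest fold change of that list at -0.71 (edgeR adjusted p = 0.589).

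Of the genes of prostanoid transport and breakdown, 3 were tested and 0 called in edgeR or DESeq2 (1 at an unadjusted p under 0.05 in edgeR). Ptgr1, a reductase that inactivates prostaglandins and leukotriene B4, had 39.2, 45.7, 108 and 113 CPM in BMDC and 80.3, 82.2, 286 and 217 CPM in BMDC-fer. It was higher in BMDC-fer within each set, at 0.94 and 1.19, and the difference was called with the replicate block (edgeR adjusted p = 0.00651) but not without it (1.12 ± 0.51, edgeR adjusted p = 0.181). Ptgr2, a related reductase, was at -0.51 (edgeR adjusted p = 0.107). The leukotriene receptors and the genes of leukotriene export and breakdown had 9 tested members and 0 calls in edgeR (1 at an unadjusted p under 0.05), with 1, Cyp4f18, called by DESeq2. Cyp4f18, which inactivates leukotriene B4 by hydroxylation, was lowest at -0.73 ± 0.25 (edgeR adjusted p = 0.0884, against 0.0100 in the blocked fit, where it was called), and Mgst3 was highest at 0.40 (edgeR adjusted p = 0.251).

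Among the other lipoxygenases, Alox15 was the single gene tested. Alox15 oxygenates arachidonic and linoleic acid and had 12.7, 7.29, 7.74 and 8.36 CPM in BMDC and 1.78, 0.636, 1.01 and 0.576 CPM in BMDC-fer. It was lower in both sets, and the fitted difference of -3.16 ± 0.40 on the log2 scale was called (edgeR adjusted p = 0.00384). Its call held in all 8 fits without a library, with adjusted p of at most 0.0182. A further list held genes that cAMP, the second messenger of EP2 and EP4, induces along with other signals, and receptor signalling was not measured. Of its 10 tested members, 2 were called lower in BMDC-fer, as were 5.91% of all tested genes, and 9 had a fold change below 0 (median -1.17). Within replicates 1 and 2, Dusp1 (0.39), Pde4d (0.01), Thbs1 (0.42) and Vegfa (0.70) were above 0. Within replicates 3 and 4, Crem (0.41) and Thbs1 (0.01) were above 0. Pde4b was at -0.63 within replicates 1 and 2 and at -3.93 within replicates 3 and 4. Pde4b, a cAMP-degrading phosphodiesterase, had 26.6, 23.5, 152 and 120 CPM in BMDC and 17.0, 15.4, 8.05 and 9.79 CPM in BMDC-fer (-2.68 ± 0.64 on the log2 scale, edgeR adjusted p = 0.0312). Its call was lost with the replicate block (edgeR adjusted p = 0.0971) and in 6 of the 8 fits without a library, all but those without BMDC replicate 1 or 2. Sik1, a kinase gene induced by cAMP, had 12.1 to 27.2 CPM in BMDC and 7.38 to 9.07 CPM in BMDC-fer (-1.15 ± 0.26, edgeR adjusted p = 0.0257) and lost its call in 4 of the 8 fits, without BMDC replicate 4 or BMDC-fer replicate 2, 3 or 4. Nr4a2, a nuclear receptor gene, had the lowest fold change of the list at -2.82 (edgeR adjusted p = 0.0576), and Thbs1 the highest at 0.11 (edgeR adjusted p = 0.908). In this list, 9 of the 10 tested genes had effects that differed between the replicate sets in the interaction test.

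**Figure D4:**
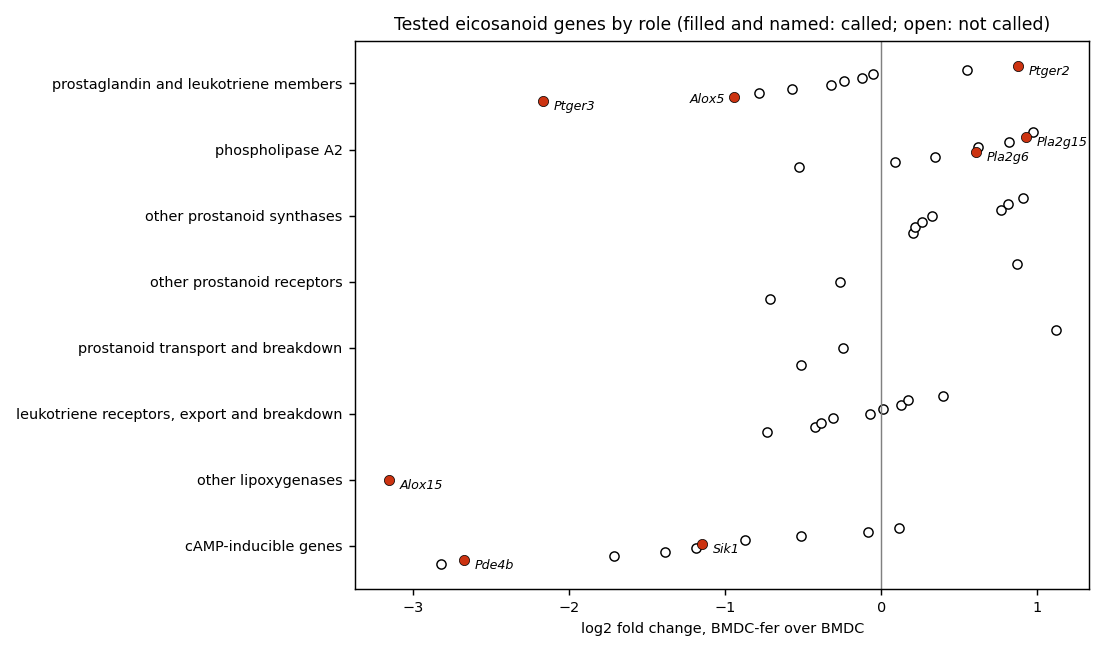
Fitted log2 fold change (BMDC-fer over BMDC) of every tested gene of the pathway lists, in rows by role, with filled named points for genes called over all 8 libraries and open points for those not called. The 10 genes of the top row include 3 calls, 8 of them lie below 0, and 5 further genes are called in the other rows.

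Markers of several cell types moved between the groups. Over all tested genes, 9.38% were called, 5.91% lower in BMDC-fer, and 13% were called with the replicate block. Of 9 dendritic cell markers, all tested, 3 were called lower in BMDC-fer (Flt3, Dpp4 and Cd86) and 8 with the replicate block, and the summed level was 7671 to 17976 CPM in BMDC and 3439 to 8657 CPM in BMDC-fer. Flt3, a receptor of dendritic cell precursors, was low in all libraries, at 3.43 to 4.47 CPM in BMDC and 0.122 to 0.445 CPM in BMDC-fer. The integrin gene Itgax, which encodes CD11c, was at 787 to 1407 CPM in BMDC and 748 to 1317 CPM in BMDC-fer. Of 9 macrophage markers 8 were tested and Adgre1 was called lower, while the other 7 had fold changes above 0 and were not called (median of the 8, 0.48), with sums of 1266 to 2434 and 1323 to 3326 CPM and Vsig4 at or under the floor in every library. For 6 markers of megakaryocytes and platelets, 5 tested, Pf4 and Ppbp were called higher and Itga2b lower, with sums of 173 to 217 and 339 to 648 CPM. The 10 T cell markers were listed for mouse T cells or for human Jurkat reads counted on mouse genes. For these, 3 tested, Lck and Tcf7 were called lower, the sums were 5.45 to 9.22 and 0.785 to 1.98 CPM, and Bcl11b, Rag1 and Themis had 0 counts in every library. The part of these shifts in the results for the 10 genes was not tested.

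Neutrophils and mast cells are known to express genes of the leukotriene branch, so their markers are given beside Alox5, Lta4h and Ltc4s. Of 11 neutrophil markers, all tested, 5 were called lower in BMDC-fer (S100a9, Ly6g, Ngp, Elane and Retnlg) and 9 with the replicate block. Beside this, 5.91% of all tested genes were called lower, and 13% were called in either direction with the block. For the neutrophil markers, levels were as follows. Their sum was 608 to 1247 CPM in BMDC and 728 to 1463 CPM in BMDC-fer, most of it from Mmp8, which was not called. S100a9 stood at 78.3, 14, 87.1 and 20.1 CPM in BMDC and 9.79, 0.661, 1.44 and 3.04 CPM in BMDC-fer. In the same BMDC libraries, Alox5 was at 166, 171, 139 and 156 CPM, Lta4h at 251, 195, 123 and 117 CPM and Ltc4s at 6.43, 5.77, 13.0 and 14.2 CPM. Between the controls of a set, Alox5 was lower and Lta4h higher in the library with more S100a9, and Ltc4s was higher there in replicates 1 and 2 and lower in replicates 3 and 4. The part of neutrophils in the values of these genes was not tested. Of 12 mast cell and basophil markers, 4 were tested and 0 called by edgeR (3 at an unadjusted p under 0.05, 1 called with the replicate block and 2 by DESeq2), with sums of 39.1 to 69.4 CPM in BMDC and 15.1 to 35.2 CPM in BMDC-fer. Most of these sums came from Kit (means of 21.3 and 13.0 CPM) and Gata2 (19.4 and 7.59 CPM). Mcpt8, Tpsb2, Cma1, Fcer1a and Ms4a2 were under 1 CPM in every library. Mcpt4 was at 0 in every library, and Cpa3 was at 4.75, 2.13, 2.72 and 2.57 CPM in BMDC and 1.56, 0.539, 0.934 and 0.157 CPM in BMDC-fer. The part of mast cells in the values of Ptger3 and Ltc4s was not tested.

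Ptgs2 and Alox5 each encode an enzyme that opens a branch, a step that Ptgs2 shares with the more abundant Ptgs1. For Ptgs2 and Alox5, the genes with the most similar profile were found among 12750 tested genes with a mean of at least 1 CPM. Likeness was measured by Pearson r of log2(CPM + 0.05) over the 8 libraries. The libraries share groups and replicate sets, so these values describe likeness only. Nearest to Ptgs2 were Fbxw4 (r = 0.984), Coq10b (r = 0.980) and Usf2 (r = 0.978). Usf2, at 89.2, 96.2, 145 and 151 CPM in BMDC and 115 to 123 CPM in BMDC-fer, showed the same low and high controls around an intermediate BMDC-fer level, over a narrower range. Nearest to Alox5 were Dennd5a (r = 0.994), Kcna3 (r = 0.991) and Rflnb (r = 0.989). Kcna3, a potassium channel gene, had 10.4 to 15.0 CPM in BMDC and 1.57 to 2.83 CPM in BMDC-fer, with the highest BMDC-fer value in replicate 3, as for Alox5.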

How the data were processed

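Counts on mouse genes were available for 4 BMDC and 4 BMDC-fer libraries. The authors mapped reads to mm10 with HISAT2 and counted them per gene with featureCounts, and the raw counts were deposited without normalization. CASAVA and DESeq2 are also named in the submitters' processing notes, and versions, annotation and use of strand are not given in the sources used here. Libraries were assigned to groups and replicate numbers by their titles.

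These counts were tested with edgeR 4.0.16 in R 4.3.3 (TMM, filterByExpr with a count minimum of 10, quasi-likelihood test, Benjamini-Hochberg adjustment over all 15411 tested genes). For single genes, log2(CPM + 0.05) was compared between groups with an exact permutation test, two-sided, in SciPy 1.17.1. Symbols, loci and exon lengths came from GENCODE M21 (GRCm38), and 55141 of 55487 gene identifiers were given a symbol. Promoter windows came from RefSeq. Alternatives were RLE, upper quartile and no normalization factors, no filter, a filter of 1 CPM in 4 libraries, DESeq2 1.42.0, the replicate number as a block, the replicate set as a covariate, fits within each set, a pseudocount of 0.5 and each library left out. Same-numbered libraries of the groups deviated together from the group means (r of 0.445, 0.354, 0.313 and 0.342 across genes), and the shared numbers in the titles were taken to pair the samples. Differently numbered libraries were also alike within a set (r of 0.186 and 0.286 for replicates 1 and 2, and of 0.379 and 0.342 for replicates 3 and 4, where they were no less alike than same-numbered ones), and r across sets was -0.387 to -0.278. Replicate libraries differed by more than sampling noise, so each was counted as 1 sample. Libraries of a set were far closer than libraries across sets (chi-square per gene of 8.97 to 40.3 against 136 to 341). They may therefore not be independent, which was not tested.

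The 10 genes, the pathway and marker lists and the split into replicate sets were chosen with earlier results of these data known. The genes named are the 10, every called gene and the highest and lowest tested gene of each pathway list, and the 3 genes most like Ptgs2 and Alox5. Some further listed genes are named beside these. Prxl2b, a newer symbol of the listed Fam213b, matched no row of its own, and Dpep2, carried by more than a single identifier, was not used. In a test on simulated counts for BMDC-fer against BMDC (15162 genes, 190 of them changed), edgeR found 85.8% of the changed genes and 5 of its 168 calls were false. The blocked fit found 82.1% (7 of 163 calls false) and DESeq2 92.1% (60 of 235). The interaction test, simulated over 15150 genes with 195 changed, found 43.1% (7 of 91 calls false). The changed genes were given effects near or above the size of that of Ptger3, larger than those of the other genes of the 10. No baseline shift between the replicate sets was simulated. These shares therefore do not measure power or error for the smaller effects and split libraries of the real data.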

Additional observations from a re-analysis of the deposited data

Results flagged for a closer look

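For 6 of the 10 genes, the change from BMDC to BMDC-fer was not the same in replicates 1 and 2 as in replicates 3 and 4, by the edgeR test of the difference itself. The effect in replicates 3 and 4 minus that in replicates 1 and 2 was -2.77 on the log2 scale for Ptgs2, -1.06 for Ltc4s, -0.86 for Ptger3, -0.71 for Ptger4, 0.76 for Ptger2 and 0.86 for Lta4h. The same test was passed by 37.8% of all tested genes, so differences of this kind were common in these libraries. No label names what separates the sets, and the cause was not tested. Among 20 groups of 4 libraries (10 genes in 2 groups), 0 held a library far from the other 3 by Dixon's criterion, where chance gives about 1 in 20 for independent values. Where values split by replicate set, as for Ptgs2, Lta4h and Ltc4s in BMDC, this criterion cannot flag a single library.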

How the results depend on the processing

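The calls of Ptger3 and Alox5 and the absence of a call for Ptgs1 and Alox5ap kept their direction and their side of the threshold under all 18 alternatives each. Of the values of the named genes under an alternative, 396 kept both, 35 kept the direction and newly passed the threshold, 40 kept the direction and no longer passed it, and 13 changed sign, among which Ptgs2 within replicates 1 and 2 passed it. The cause was not tested for any of these. Genes called over the whole table were 1445, and 2261 with DESeq2, 2815 with the replicate set as a covariate, 3435 within replicates 1 and 2, 5092 within replicates 3 and 4, and 565 to 1440 without a library. Of the 10 genes, 3 were called, 5 within either replicate set and 2 to 3 without a library. Of the other listed genes, 41 of them tested over all libraries, 5 were called. This became 12 with DESeq2, 10 with the replicate block and 15 with the set as a covariate. Within the sets it was 16 and 21, and without a library 1 to 7. Over all tested genes, 9.38% were called, 14.7% with DESeq2, 13% with the replicate block, and 22.3% and 33% within the sets. Genes without overlap between groups were 4, 7 within replicates 1 and 2, 9 within replicates 3 and 4, and 4 to 5 without a library; with 2 against 2 libraries, 69.4% and 79.6% of all tested genes did not overlap in these sets, and without a library 24.8% to 28.2%. Genes whose effect differed between sets were 6, and 3 to 7 without a library. Adding the replicate block gave 2000 calls in all and 3 among the 10, the sign of Ptgs2 turned to 0.21, and no call of the 10 genes changed. Among the other listed genes, Pla2g7, Hpgds, Cbr1 and Ptgr1 (higher) and Cyp4f18 and Nr4a3 (lower) were gained and Pde4b was lost. Ptgs2 also changed sign with the set as a covariate (0.20), within replicates 1 and 2 (1.64) and without BMDC replicate 3 or 4 (0.20 and 0.00), and ranged from -0.64 to 0.20 without a library. Ptger4 turned to 0.21 within replicates 1 and 2 and to between 0.10 and 0.13 without BMDC replicate 1 or BMDC-fer replicate 3 or 4 (0.10, 0.13 and 0.10), with a lowest value of -0.34. Ltc4s turned to 0.07 within replicates 1 and 2. Thbs1 turned to -0.16, -0.10 and -0.26 without BMDC replicate 1, BMDC replicate 2 or BMDC-fer replicate 3, with a highest value of 0.43. With 4 libraries a group, the exact permutation test cannot give a p under 0.0286, and the BMDC-fer level of Ptger3 rests on 34 to 109 counts.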
